A study of Arabidopsis thaliana with 12 samples.

Results

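The genes described here encode enzymes of plastid metabolism in Arabidopsis thaliana, each measured by an array probe annotated with a single gene. They are 6 of the 3439 probes of the table, and 6 of the 691 genes that had a probe of their own. PRK (AT1G32060) and SBPASE (AT3G55800) belong to the Calvin cycle, and CHLM (AT4G25080) and AT1G74470 to chlorophyll synthesis. FATB (AT1G08510) acts in fatty acid synthesis and AT3G23940 in the synthesis of branched-chain amino acids. The probes were picked by their annotation and by the role of the gene, at a time when results of these samples were known. Their values are therefore given as a description of these samples.

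Array profiles had been made from total RNA of 6 samples of the toc132 mutant and 6 samples of the wild type (WT), both of ecotype Columbia 0. The labels name the mutant as one with impaired import of proteins through the outer membrane of the chloroplast envelope. The sources used here do not give the mutant allele, the organ, or the age and growth of the plants. Samples carry the numbers 1 to 6 in each group, and no label says that they came from separate plants, so that the spread between them may be technical. In bulk RNA of this kind, fewer cells of a type and less RNA per cell cannot be told apart. The root and seed markers looked up, 6 and 8 genes, had 0 probes that name a single gene, and neither did TOC132, so the mutated gene could not be used to check the labels.

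Most proteins of the chloroplast are encoded in the nucleus, made in the cytosol with an N-terminal transit peptide, and taken up through the translocons of the outer and inner envelope. TOC132 is one of the GTPase receptors of the outer translocon and binds transit peptides. All 6 enzymes are nuclear-encoded plastid proteins that reach the stroma, or the membranes inside the plastid, by this kind of route. In the Calvin cycle, SBPASE removes a phosphate from sedoheptulose bisphosphate and PRK makes ribulose bisphosphate, the acceptor of carbon dioxide. CHLM adds the methyl group to magnesium protoporphyrin, and AT1G74470, the geranylgeranyl reductase, makes the phytyl tail of chlorophyll and of tocopherols. FATB is the thioesterase that frees saturated fatty acids from acyl carrier protein for export from the plastid. AT3G23940 is dihydroxyacid dehydratase, which makes the oxo acid precursors of valine, leucine and isoleucine.

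The samples form 3 pairs of consecutive numbers in each group, known only from the similarity of the profiles. Across probes, Pearson's r of log2 intensities was between 0.891 and 0.970 for the samples of a pair. WT samples 1 and 2 stood apart from the other WT samples. Their r was 0.886 to 0.915 with toc132 samples 1 to 4, 0.703 to 0.713 with WT samples 3 and 4, and 0.543 to 0.556 with WT samples 5 and 6. Over the 2907 probes with a value above 0 in all samples, the mean of WT 1 and 2 was nearer to the toc132 mean than to the mean of WT 3 to 6 for 80.0% of probes. This was also so for 5 of the 6 enzymes, PRK being the exception. Whether labels had been exchanged was not tested, and differences for numbers 1 and 2 and over all samples are given as the samples are labelled. Values are therefore also given by pair of numbers. They are log2 intensities after quantile normalisation unless stated otherwise, and the intensity scale is arbitrary.

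Between toc132 and WT over all samples, the log2 difference was above 0 for 4 of the 6 genes and below 0 for 2, and 0 of 6 passed an adjusted p of 0.05 (limma, Benjamini-Hochberg over 3190 probes). The share of all probes that passed was 0%. When the replicate number was added as a block, 21 of all probes and 0 of the 6 enzymes passed. That fit and the fit without a block both count the close samples of a pair as independent, while their estimated correlation within pairs was 0.87. The SE given below come from fits without a block. In limma 0 probes passed with pairs as a random block or with the samples of a pair averaged. In these fits 257 and 150 probes had an unadjusted p under 0.05. In the fit without a block, 2 of the 6 enzymes, AT3G23940 and FATB, had an unadjusted p under 0.05, where 25.3% of all probes lay under it. The limma adjusted p of the 6 genes in that fit was between 0.124 and 0.942. With pairs as a random block or averaged, the unadjusted limma p was 0.018 and 0.061 for AT3G23940. For FATB it was 0.43 and 0.157. Their median log2 difference (toc132 minus WT) was 0.09, beside -0.06 over all probes. All 6 genes had overlapping values in the 2 groups. Among probes complete in all samples, 2.61% had values that did not overlap.

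**Figure D1:**
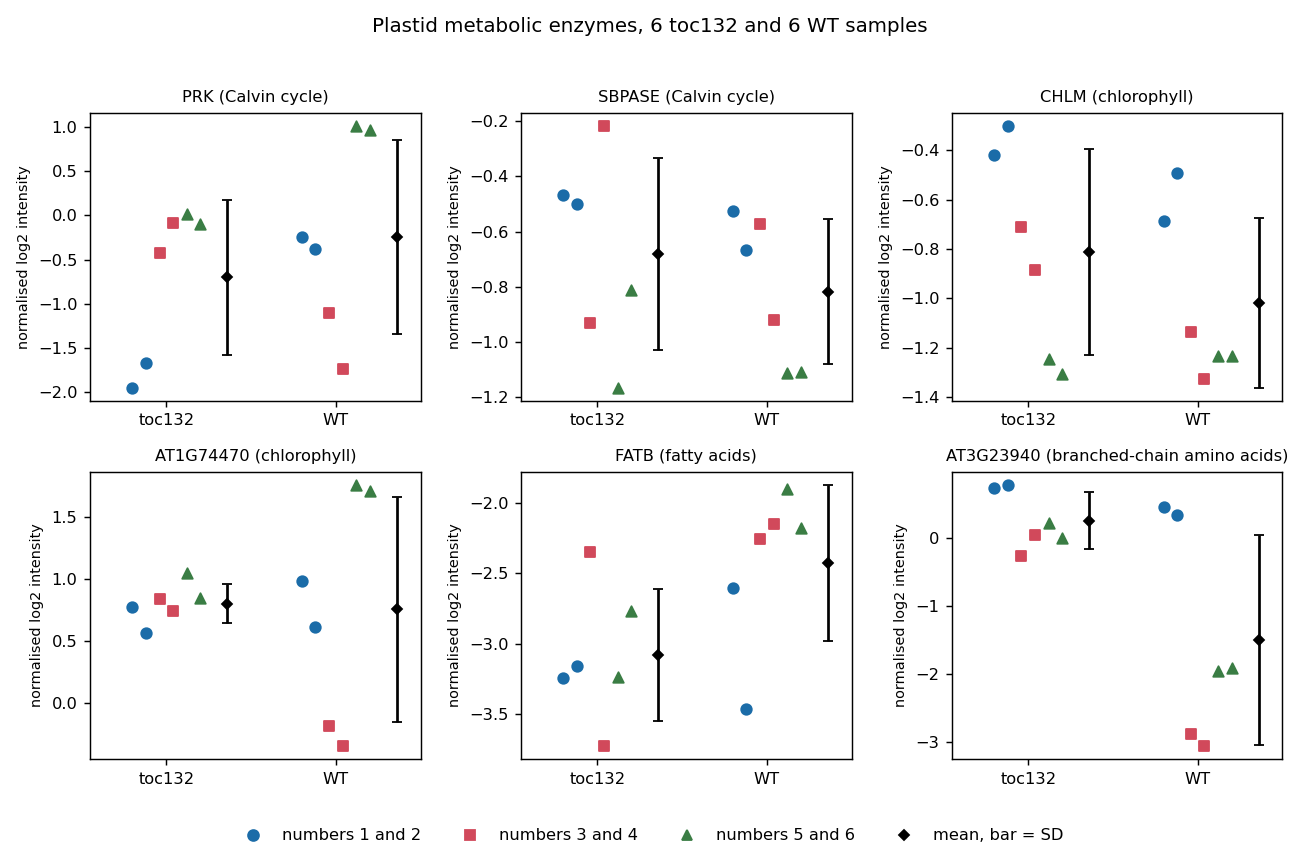
Normalised log2 intensity (vertical axis, a scale of its own in each panel) of the 6 enzymes in each toc132 sample (left) and WT sample (right), with the colour and shape giving the pair of sample numbers and the black diamond and bar the mean and SD of the 6 samples. AT3G23940 is low in WT samples 3 to 6 (-3.06 to -1.92) and at -0.26 or above in all the others, and AT1G74470 lies between 0.57 and 1.05 in toc132 while the WT samples spread from -0.34 to 1.76.

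AT3G23940, the dihydroxyacid dehydratase, had the largest difference of the 6 genes. In toc132 it was at 0.74 and 0.79 in samples 1 and 2, at -0.26 and 0.05 in samples 3 and 4, and at 0.23 and 0.01 in samples 5 and 6. In WT it was at 0.47 and 0.35 in samples 1 and 2, at -2.88 and -3.06 in samples 3 and 4, and at -1.95 and -1.92 in samples 5 and 6. All toc132 samples were high, and so were WT samples 1 and 2, while WT samples 3 to 6 were low. In the units of the deposited table, the same 4 WT samples had intensities of 0.141, 0.122, 0.223 and 0.234, and all the other samples were between 0.723 and 1.81.

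The mean log2 intensity of AT3G23940 was 0.26 ± 0.42 (SD, n = 6) in toc132 and -1.50 ± 1.55 (SD, n = 6) in WT. This is a log2 difference of 1.76 ± 0.59 (SE), or 3.38-fold of WT. Its size exceeded that of 97.0% of the probes tested. By pair of numbers, toc132 stood at 1.28-fold of WT for 1 and 2, at 7.30-fold for 3 and 4, and at 4.15-fold for 5 and 6. The direction for numbers 1 and 2 depended on the scaling. The log2 difference there was 0.36 after quantile normalisation, 0.67 in the values as deposited, 0.01 after cyclic loess and -0.04 after median centring. For the other numbers it was above 2 under each of these scalings. A difference of at least 1 (log2) above WT for both 3 and 4 and 5 and 6 was seen for 8.86% of all probes, and among the 6 enzymes for AT3G23940.

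The size of the AT3G23940 difference depended on which WT samples were included. Without WT samples 1 and 2 the log2 difference was 2.71 ± 0.31 (SE, limma adjusted p = 0.000164), and without WT sample 1 or WT sample 2 alone it was 2.15 (limma adjusted p = 0.0322) or 2.13 (limma adjusted p = 0.0348). In these fits 1133 of 3173, 393 of 3158 and 423 of 3155 probes passed. Leaving out WT samples 1 and 2, which resemble toc132, widens a difference by construction. With both samples of each pair averaged, the limma adjusted p of AT3G23940 was 0.687. Over the alternatives it lay between 0.000164 and 0.687.

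AT3G58610, ketol-acid reductoisomerase, catalyses the step just before dihydroxyacid dehydratase. It is the other gene of the branched-chain amino acid list with a probe of its own. It was at -2.16, -2.07, -3.62, -1.68, -0.50 and -0.20 in toc132 samples 1 to 6, and at -1.28, -1.15, -1.75, -1.87, 0.11 and 0.11 in WT samples 1 to 6. The values overlapped between the groups, and in both groups samples 5 and 6 were the highest. The log2 difference was -0.73 ± 0.56 (SE, limma adjusted p = 0.403). It was -0.90, -0.84 and -0.46 for numbers 1 and 2, 3 and 4, and 5 and 6. These neighbouring steps of a pathway thus had differences of opposite sign in the same samples, and neither passed the test. The other 17 genes of that list of 19 had no tested probe of their own.

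In the Calvin cycle, PRK had differences of opposite sign between the pairs of numbers. In toc132 it was at -1.95 and -1.67 in samples 1 and 2, at -0.42 and -0.09 in samples 3 and 4, and at 0.02 and -0.10 in samples 5 and 6. In WT it was at -0.25 and -0.39 in samples 1 and 2, at -1.10 and -1.74 in samples 3 and 4, and at 1.02 and 0.97 in samples 5 and 6. The lowest levels were those of toc132 1 and 2 and WT 3 and 4, and the highest were those of WT 5 and 6. The samples with the lowest levels also stood apart as whole arrays. Their median deposited intensities were 0.559 to 0.616, beside 0.354 to 0.429 in all the others. Whether the PRK levels are tied to this was not tested. Within numbers 1 and 2 and within 5 and 6, both toc132 samples lay below both WT samples, at 0.355-fold and 0.489-fold of WT. Within numbers 3 and 4 both lay above, at 2.24-fold of WT. The log2 difference over all samples was -0.45 ± 0.52 (SE). The same signs by pair were found under each of the 4 scalings, with -0.70, 0.68 and -1.24 in the values as deposited.

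SBPASE, the other Calvin cycle enzyme, varied little. It was between -1.16 and -0.22 in toc132, with a median of -0.66, and between -1.11 and -0.53 in WT, with a median of -0.79. Its log2 difference was 0.14 ± 0.22 (SE), and by pair of numbers it was 0.11, 0.17 and 0.12. Samples of a pair differed by up to 0.71, between toc132 3 (-0.93) and toc132 4 (-0.22), so these differences are smaller than the largest gap within a pair. For numbers 1 and 2 the samples lay closer, at -0.47 and -0.50 in toc132 and at -0.53 and -0.67 in WT. Ordered by level, each pair of samples overlapped with the next. In the values as deposited the differences by pair were 0.73, -0.38 and 0.19, where the median of all probes was at 0.70, -0.56 and 0.02. The 2 enzymes of the cycle did not share a profile: the root mean square difference of their mean-centred log2 values over the 12 samples was 1.11. The other 23 genes of the Calvin cycle list of 25 had no tested probe of their own.

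In chlorophyll synthesis, CHLM differed more between pairs of numbers than between the groups. In toc132 it was at -0.42 and -0.30 in samples 1 and 2, -0.71 and -0.89 in samples 3 and 4, and -1.25 and -1.31 in samples 5 and 6. In WT it was at -0.69 and -0.49 in samples 1 and 2, -1.14 and -1.33 in samples 3 and 4, and -1.23 and -1.23 in samples 5 and 6. Samples 1 and 2 were the highest of each group, and samples 5 and 6 of both groups were at nearly the same level. The log2 difference was 0.21 ± 0.24 (SE) over all samples, with 0.23, 0.43 and -0.04 by pair of numbers. In the values as deposited these were 0.81, -0.07 and 0.06.

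AT1G74470, the geranylgeranyl reductase, was even in toc132 and uneven in WT. It was at 0.77, 0.57, 0.84, 0.75, 1.05 and 0.85 in toc132 samples 1 to 6. In WT it was at 0.98 and 0.62 in samples 1 and 2, at -0.18 and -0.34 in samples 3 and 4, and at 1.76 and 1.71 in samples 5 and 6. WT samples 3 and 4 lay below all toc132 samples and WT samples 5 and 6 above all of them. The means of the groups were nearly equal, at 0.80 ± 0.16 (SD, n = 6) in toc132 and 0.76 ± 0.90 (SD, n = 6) in WT. By pair of numbers toc132 stood at 0.915-fold, 2.08-fold and 0.579-fold of WT. For numbers 1 and 2 the sign depended on the scaling, with a log2 difference of -0.13 here, 0.16 in the values as deposited, 0.01 after cyclic loess and -0.56 after median centring. The log2 difference over all samples, 0.05, was below 0 under the other 3 scalings (-0.17 to -0.09).

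HEMA3 (AT2G31250), of the family of glutamyl-tRNA reductases that begin the pathway to chlorophyll and heme, was the third tested gene of this list of 29. It was between 0.20 and 0.51 in toc132 and between -0.07 and 0.48 in WT. Its 4 low values, at or below 0.02, were those of WT samples 1, 2, 5 and 6. The log2 difference was 0.21 ± 0.18 (SE, limma adjusted p = 0.463), and 0 of the 3 tested genes of the list passed. Its value is uncertain, because the probe sequence was not used here and members of the family may share it.

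In fatty acid synthesis, FATB was lower in toc132 for 5 of the 6 numbers. In toc132 it was at -3.24 and -3.16 in samples 1 and 2, at -2.35 and -3.73 in samples 3 and 4, and at -3.24 and -2.77 in samples 5 and 6. In WT it was at -2.61 and -3.46 in samples 1 and 2, at -2.25 and -2.15 in samples 3 and 4, and at -1.90 and -2.18 in samples 5 and 6. The 4 WT samples 3 to 6 were above all toc132 samples, while WT 1 and 2 were among them. The log2 difference was -0.65 ± 0.30 (SE), or 0.635-fold of WT, and by pair of numbers -0.17, -0.84 and -0.96. Under the other scalings the log2 difference over all samples was smaller, with -0.36 in the values as deposited, -0.44 after median centring and -0.45 after cyclic loess, at unadjusted limma p of 0.328, 0.141 and 0.108. The probe is dim, with deposited intensities between 0.0718 and 0.258, and samples of a pair differed by up to 1.38 (log2). Without WT sample 2 the log2 difference was -0.86 (limma adjusted p = 0.0476), and without WT samples 1 and 2 it was -0.96 (limma adjusted p = 0.0154). In these fits 423 of 3155 and 1133 of 3173 probes passed, and leaving out WT samples that resemble toc132 widens a difference by construction. For numbers 1 and 2 the sign depended on the scaling, with 0.88 in the values as deposited and 0.17 after median centring.

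AT1G24360, the ketoacyl-ACP reductase of the elongation cycle, was the other tested gene of the fatty acid list of 33. In toc132 it was at -2.16, -1.88, -2.40, -1.57, -2.22 and -1.82 in samples 1 to 6. In WT it was at -2.53, -1.98, -2.75, -2.92, -4.34 and -4.94 in samples 1 to 6. WT samples 5 and 6 were the lowest, and apart from WT 2 all WT samples lay below all toc132 samples. The log2 difference was 1.24 ± 0.45 (SE, limma adjusted p = 0.133), opposite in sign to that of FATB, with 0.23, 0.85 and 2.62 by pair of numbers. The largest of these rests on dim values, with deposited intensities of 0.0421 and 0.0272 in WT samples 5 and 6, below the lowest of FATB. AT5G16230, of the acyl-ACP desaturase family, had a probe that was listed at 0 in 5 toc132 and 6 WT samples and was not tested.

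**Figure D2:**
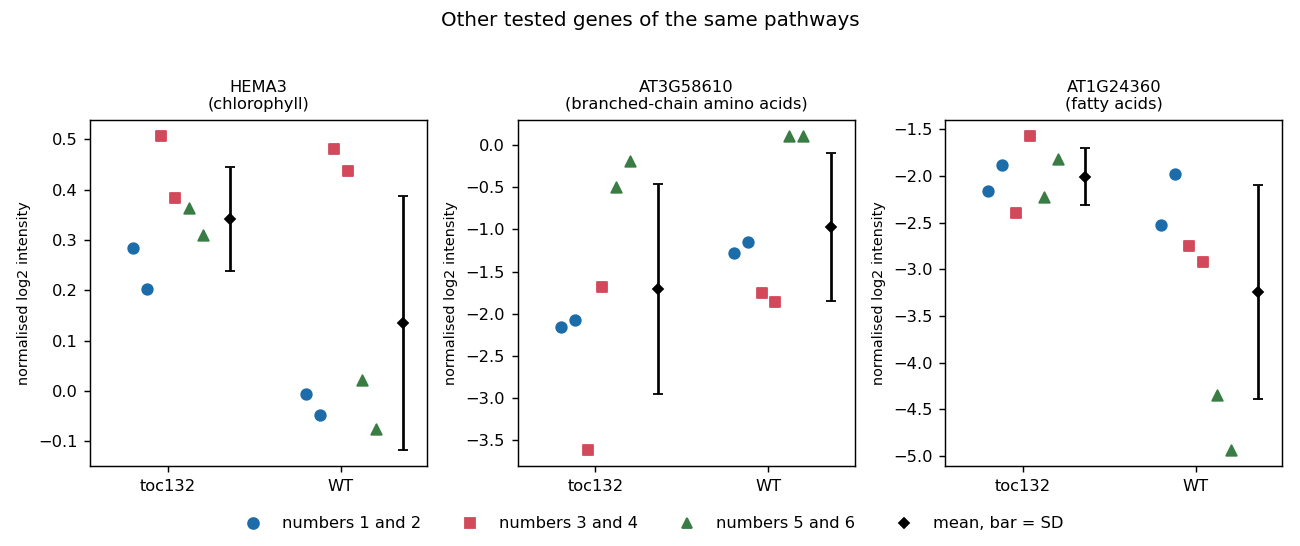
Normalised log2 intensity (vertical axis, a scale of its own in each panel) of the 3 other tested genes of the same pathways, by toc132 sample (left) and WT sample (right), with the pair of sample numbers by colour and shape and the mean and SD in black. AT1G24360 is lowest in WT samples 5 and 6 (-4.34 and -4.94), and AT3G58610 is highest in samples 5 and 6 of both groups.

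Together the 4 pathway lists held 106 genes, of which 9 had a tested probe of their own. Of these 9, 6 had a log2 difference above 0 and 3 below 0, and 0 of 9 passed the test. Above 0 were 45.9% of all probes tested. A further 14 of the 106 genes are named on probes with several genes and were not used here.

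The enzymes with a large difference after quantile normalisation were counted for each pair of numbers. For numbers 1 and 2, 1 of the 6 enzymes, PRK, differed by at least 1 (log2) in either direction, beside 8.86% of all probes. For 3 and 4 it was 3 of the 6, PRK, AT1G74470 and AT3G23940, beside 29.6% of all probes. For 5 and 6 it was 2 of the 6, PRK and AT3G23940, beside 41% of all probes. The share of all probes was thus highest for 5 and 6, while AT3G23940 and AT1G74470 had their largest differences for 3 and 4 and PRK for 1 and 2. In the values as deposited and after cyclic loess, the largest were for 5 and 6 in PRK (-1.24 and -1.40) and AT1G74470 (-1.02 and -1.30). The enzymes counted also depended on the scaling. As deposited, PRK was at -0.70 for 1 and 2 and at 0.68 for 3 and 4. AT1G74470 was then at 0.59 for 3 and 4 and at -1.02 for 5 and 6, and FATB at -1.15 for 3 and 4. The direction was the same for all 3 pairs of numbers for 3 of the 6 enzymes, SBPASE, FATB and AT3G23940, where 37.4% of all probes had this. After median centring it was the same for SBPASE and no longer for FATB and AT3G23940. In the values as deposited it was the same for AT3G23940 (0.67, 2.63 and 2.18). It was then no longer the same for SBPASE (0.73, -0.38 and 0.19) and FATB (0.88, -1.15 and -0.82).

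**Figure D3:**
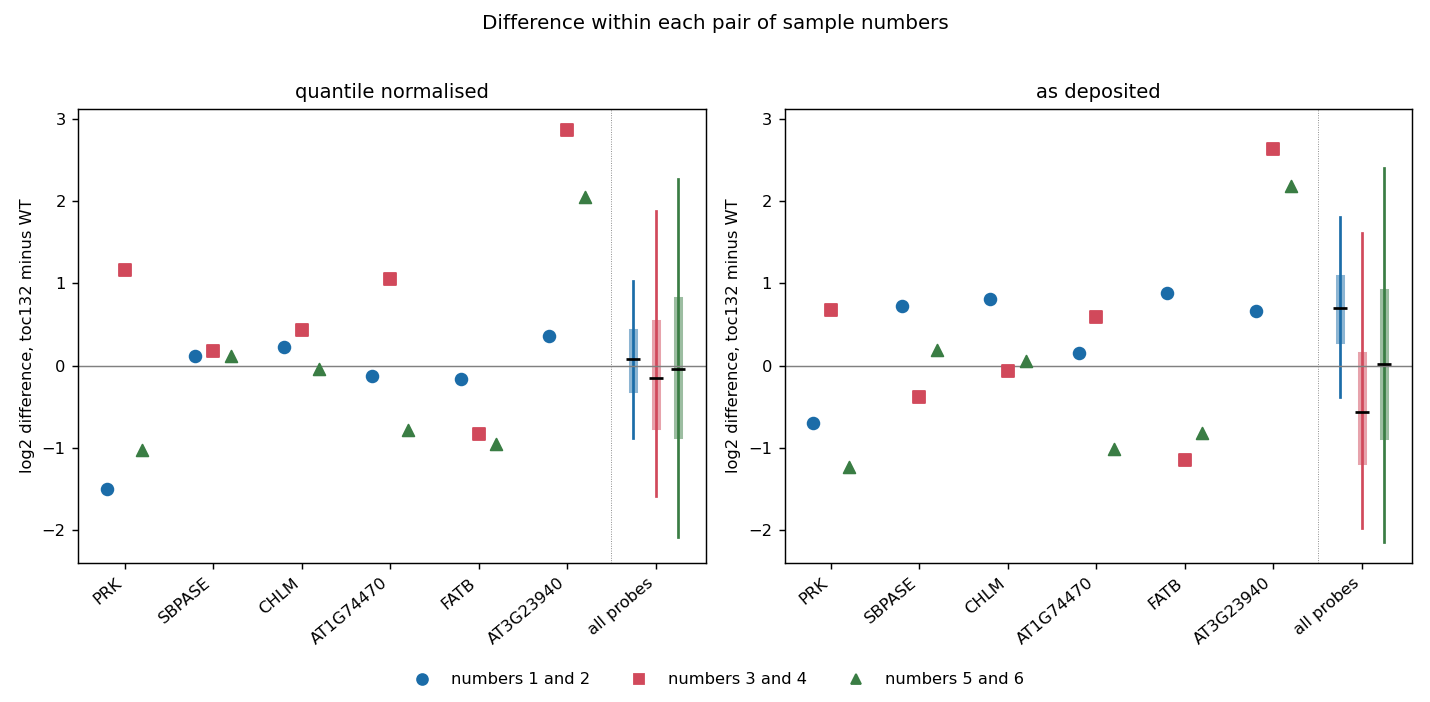
Log2 difference of toc132 minus WT (vertical axis) within numbers 1 and 2, 3 and 4, and 5 and 6 for the 6 enzymes, after quantile normalisation (left panel) and in the values as deposited (right panel); at the right of each panel, the thin lines span percentiles 5 to 95 of all probes, the thick lines percentiles 25 to 75 and the dashes their medians. PRK is above 0 for numbers 3 and 4 only and AT3G23940 is above 2 for 3 and 4 and for 5 and 6 in both panels. In the right panel the median of all probes lies at 0.70 for numbers 1 and 2 and at -0.56 for 3 and 4.

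The spread within each group differed between the enzymes. AT1G74470 had an SD of 0.16 in toc132 and 0.90 in WT, the WT SD being 5.75 times as large, a ratio above that of 95.7% of probes. For AT3G23940 the SD was 0.42 in toc132 and 1.55 in WT, a ratio of 3.68 and above that of 86.8% of probes. For PRK and FATB the WT SD was 1.25 and 1.18 times that in toc132, and for SBPASE and CHLM it was the smaller one, at 0.757 and 0.826 times. A larger SD in WT was common on this array: it was found for 73.8% of the 2907 complete probes, with a median ratio of 1.56, and for 4 of the 6 enzymes. The smaller SD of AT1G74470 in toc132 was also present in the values as deposited, with 0.14 in toc132 and 0.87 in WT. After cyclic loess the SD was 0.11 and 1.05, and after median centring 0.31 and 1.05, so the size of the ratio depended on the scaling.

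**Figure D4:**
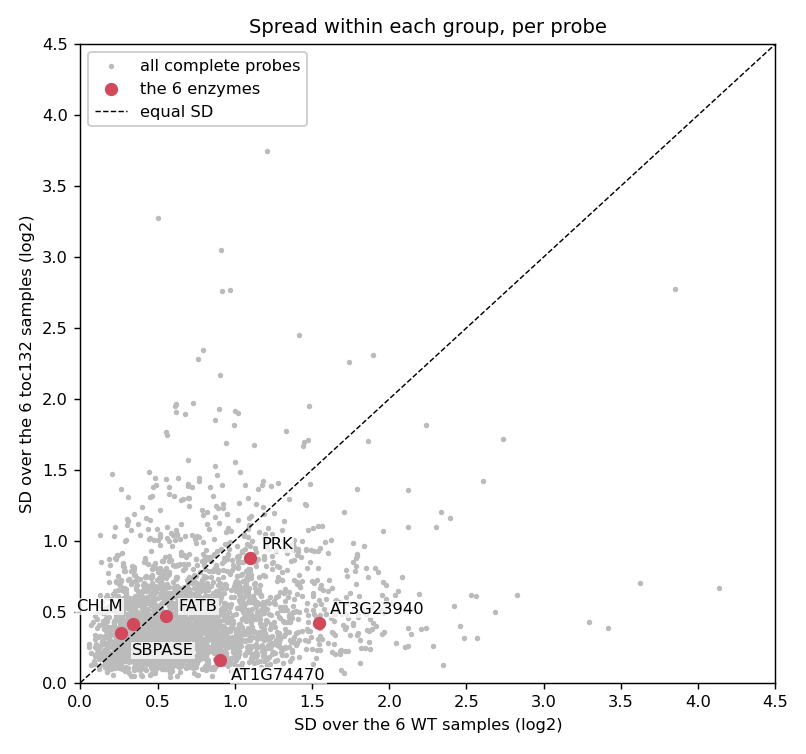
SD over the 6 toc132 samples (vertical axis) against SD over the 6 WT samples (horizontal axis), both in log2 units, for each of the 2907 probes complete in all samples, with the 6 enzymes in red and a dashed line where both are equal. AT1G74470 (0.16 in toc132, 0.90 in WT) and AT3G23940 (0.42 in toc132, 1.55 in WT) lie far below the line, and SBPASE and CHLM lie just above it.

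The levels of the 6 pairs of samples were put in order for each gene. For AT3G23940 the order was, from high to low, toc132 1 and 2, WT 1 and 2, toc132 5 and 6, toc132 3 and 4, WT 5 and 6, and WT 3 and 4. Neighbours in this order did not overlap, apart from toc132 5 and 6 with toc132 3 and 4. For AT1G74470, WT 5 and 6 came first and WT 3 and 4 last, and the 4 pairs between them overlapped each with the next. For PRK, WT 5 and 6 came first and toc132 1 and 2 last, and toc132 1 and 2 overlapped with WT 3 and 4. For CHLM, toc132 1 and 2 came first and WT 1 and 2 next, and WT 3 and 4, WT 5 and 6 and toc132 5 and 6 came last, at means of -1.23, -1.23 and -1.28. For FATB, WT 5 and 6 and WT 3 and 4 came first and overlapped with each other, and the other 4 pairs lay below them and overlapped.

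Profiles were compared over the 12 samples by the root mean square difference of mean-centred log2 values, which is a description with no test. Among the 6 enzymes, SBPASE and CHLM were the closest, at 0.29, and FATB and AT3G23940 the farthest apart, at 1.83. The measure also depends on how much each gene varies, so genes that vary little lie close whatever their shape. In toc132 and WT the SD was 0.35 and 0.26 for SBPASE and 0.42 and 0.34 for CHLM. Of 586 other probes with a single gene and complete values, those closest to AT3G23940 were AT1G51080 (0.30) and AT5G42680 (0.32), where the median of all was 1.50. By pair of numbers, AT1G51080 had log2 differences of 0.72, 2.59 and 1.60, and AT5G42680 had 0.26, 2.50 and 1.92. Closest to PRK were AT3G56290 (0.36) and AT5G23540 (0.42), with a median of 1.15. Closest to AT1G74470 were AT4G19900 (0.26) and AT1G35210 (0.30), with a median of 0.87. Closest to FATB were GH9B12 (0.31), of a family of endoglucanases, and AT1G21730 (0.32), with a median of 0.80. SBPASE lay closest to AT1G18290 (0.23) and AT5G62550 (0.24), and CHLM to AT1G15410 (0.22) and AT2G36560 (0.23), with medians of 0.66 and 0.69.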

How the data were processed

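The deposited table holds 1 intensity per probe and sample, which the authors had put on an arbitrary linear scale from 0 to 100. The sources used here do not give the array type, the background correction or the scaling, and what a value at 0 stands for (174 to 277 probes per sample) is unknown. Probes at 0 numbered 174 to 188 in toc132 1 and 2 and WT 3 and 4, and 236 to 277 in the other samples. Median intensities were 0.559 to 0.616 in the former and 0.354 to 0.429 in the latter, a split that cuts across the groups. Summed intensities were 3536 to 3857 per sample, and the number of arrays limits the precision. Titles gave the groups and numbers, and every column belongs to a sample.

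Values at 0 were set to missing, and log2 intensities were quantile normalised, because the medians of the samples differed by 0.72. Probes needed 4 values in each group, which left 3190 of 3439, all 6 enzymes among them. Of the 3439 probes, 692 name a single gene, 870 several and 1877 none, and 690 of the 692 were matched by gene identifier to RefSeq (TAIR10.1), used for names only. Probes with several genes name none here. The comparison of toc132 with WT used limma 3.58.1 (lmFit, eBayes, 2-sided; R 4.3.3) and Benjamini-Hochberg adjustment over all probes tested. The fit was tested on simulated data with independent samples, which does not cover samples that lie close together in pairs, as these do. Plots were made in Python 3.11.15 (matplotlib 3.10.9).

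Named are the 6 enzymes, the other genes of the 4 pathway lists with a probe of their own, and for each enzyme the 2 complete single-gene probes with the closest profile. The enzymes, the lists and the pairs of numbers were chosen with earlier results of these data known. AT5G16230, which was not tested, was added after its values were seen. No label says what the sample numbers mark. Deviations of same-numbered toc132 and WT samples from their group means correlated across 2907 probes at 0.33, 0.30, 0.20, 0.15, 0.44 and 0.39, all above the limit of 0.1, and by that limit the numbers pair the samples. With the other sample of the pair the correlations were 0.20, 0.19, 0.16, 0.15, 0.33 and 0.30. These were also above 0.1, so the limit alone does not set the number itself apart from the pair of close samples. Each was lower than that of the same number, by little for number 4 (0.147 against 0.153). For 11 of the 12 samples the highest correlation was with the same number of the other group. The alternatives were other scalings and filters, an offset, the replicate block, pairs of samples as a random block or averaged, another eBayes prior, and samples or pairs left out.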

Additional observations from a re-analysis of the deposited data

Results flagged for a closer look

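For PRK, AT1G74470 and CHLM both toc132 samples lay above both WT samples within at least 1 pair of numbers and below both within another. The share of all probes with such a pattern was not computed, so it cannot be called particular to these enzymes. PRK was higher in toc132 by 1.17 (log2) for numbers 3 and 4 and lower for 1 and 2 (-1.50) and for 5 and 6 (-1.03). AT1G74470 was higher by 1.06 for 3 and 4 and lower for 5 and 6 (-0.79). CHLM was higher by 0.23 for 1 and 2 and by 0.43 for 3 and 4, and lower for 5 and 6 by a log2 difference of -0.04. In the values as deposited CHLM had 0.81, -0.07 and 0.06 for the same numbers, a different pattern. The difference between the pairs of numbers was not tested, since the pairs were recognised from the data. Dixon's test marked no single sample for the 6 genes, but samples that lie close together in pairs, as WT 1 and 2 do, mask each other in that test.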

How the results depend on the processing

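The count of 0 probes became 1 without the dimmest 25% of probes and with a trended robust eBayes, 2 with an offset of 0.1 and without toc132 5 and 6, and 21 with the replicate block (5 higher, 16 lower), which changed no call of the 6 enzymes. It was 831 without numbers 1 and 2 in both groups and 1133 without WT 1 and 2, and 0 to 423 with each sample left out (393 without WT 1, 423 without WT 2). With each sample left out, the log2 difference was 1.45 to 2.15 for AT3G23940, -0.86 to -0.52 for FATB, -0.75 to -0.20 for PRK, 0.04 to 0.23 for SBPASE, 0.10 to 0.31 for CHLM and -0.17 to 0.25 for AT1G74470. AT1G74470 turned to -0.0028 without toc132 5, -0.14 without WT 3 and -0.17 without WT 4. It also turned to -0.088 in the values as deposited, -0.17 with median centring, -0.15 with cyclic loess, -0.46 without numbers 3 and 4 in both groups, -0.46 without WT 3 and 4, and -0.026 without toc132 5 and 6. PRK turned to 0.067 without numbers 1 and 2 in both groups, 0.10 without toc132 1 and 2 and 0.17 without WT 5 and 6. SBPASE turned to -0.011 without WT 5 and 6, and CHLM to -0.020 without toc132 1 and 2. AT3G23940 passed the threshold at 2.46 without numbers 1 and 2 in both groups and 2.71 without WT 1 and 2. It also passed at 2.15 without WT 1 and at 2.13 without WT 2. FATB passed at -0.96 without WT 1 and 2 and at -0.86 without WT 2. The causes were not tested. Of 185 values, 165 kept their direction and side of the threshold. FATB has no value without the dimmest probes, being one of them. The sources used here do not give signal over background, so its limits were not assessed.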
